A study of Mus musculus with 9 samples.

Results

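The mitochondrial solute carriers of the Slc25 family were followed through infarction and cell implantation in the mouse heart. Members were all genes whose mouse symbol is Slc25a followed by a number, which gave 47 of the 53465 genes in the files. Of these, 39 passed the filter on low counts and were tested, among 13825 genes tested in all. The rule itself uses the symbol and no measured value.

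RNA was sequenced from hearts, sampled at the infarct border zone, with NOD-SCID (immunodeficient) mice throughout and 3 libraries in each of 3 groups. The sham group had surgery without ligation, the ligation group had a coronary artery tied off, and the third group had the same ligation followed by implantation of cells named FOXO3-GE-MPCs. All 9 libraries come from the same strain and organ, and the border zone is also the region named for sham hearts, which have no infarct. Age, sex and the time after surgery are not given in the sources used here. The source field names FOXO4-GE-MPCs for cell library 2 and FOXO5-GE-MPCs for cell library 3, against their titles and treatment fields, which were followed. The labels do not say whether libraries of a group came from separate animals, so the p-values measure only the spread between these libraries.

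The family carries small molecules across the inner mitochondrial membrane, which is otherwise closed to them. Each carrier is built from repeats of a membrane-spanning unit and usually exchanges one substrate for another, such as ADP for ATP, or citrate for malate. In heart muscle, which makes most of its ATP in mitochondria and burns mainly fatty acids, the ADP/ATP and phosphate carriers feed ATP synthase, the carnitine carrier brings in acyl groups, and the aspartate/glutamate and oxoglutarate carriers move reducing equivalents from the cytosol.

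Libraries held 4549268 to 7515052 gene counts. Levels are CPM, the counts of a gene relative to the library's total, scaled with TMM factors, which come from a trimmed mean of log ratios between libraries. After this scaling 3 counts, taken as the lowest detectable level, corresponded to 0.375 to 0.639 CPM. Cardiomyocyte genes such as Myh6, Actc1 and Tnnt2 were abundant in every library, and the 10 cardiomyocyte markers summed to 61890 to 63550 CPM in sham, 46660 to 48830 CPM after ligation and 46880 to 47830 CPM with cells. Genes encoded in mitochondrial DNA took 19.1% to 19.9% of counts in sham, 12.6% to 13.9% after ligation and 14.3% with cells. File headers of sham libraries 1 and 2 share a name stem, as do those of ligation libraries 2 and 3. Counts in these pairs differed by a mean chi-square per gene of 3.84 and 2.29, against 1.96 to 3.59 for pairs of a group with different stems, and ligation 2 and 3 were the most alike pair of their group. Every pair within a group differed by more than counting noise, which alone gives about 1, so no library was taken as deposited again under another name. That does not show whether libraries with a shared stem come from 1 animal, which was not tested. Results are also given with each such pair summed where that changes a call.

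Promoter sequences are shown for 4 members on which the results turn: the phosphate carrier Slc25a3 and the carnitine carrier Slc25a20, which both fell after ligation, and the aspartate/glutamate carriers Slc25a12 and Slc25a13, which moved in opposite directions. They are from RefSeq on GRCm38.p6 and end before the annotated start, 5′ to 3′ along the gene's strand, and capitals mark motif matches.
Slc25a3, chr10:91124060-91124217, minus strand: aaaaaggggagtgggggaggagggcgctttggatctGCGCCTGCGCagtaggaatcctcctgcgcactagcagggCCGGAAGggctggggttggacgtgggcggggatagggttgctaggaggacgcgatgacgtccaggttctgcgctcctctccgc
Slc25a20, chr9:108661886-108662087, plus strand: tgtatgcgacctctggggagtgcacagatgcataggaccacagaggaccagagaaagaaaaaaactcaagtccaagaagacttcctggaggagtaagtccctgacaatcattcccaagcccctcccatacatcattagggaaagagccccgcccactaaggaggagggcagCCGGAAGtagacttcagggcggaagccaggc
Slc25a12, chr2:71367756-71368005, minus strand: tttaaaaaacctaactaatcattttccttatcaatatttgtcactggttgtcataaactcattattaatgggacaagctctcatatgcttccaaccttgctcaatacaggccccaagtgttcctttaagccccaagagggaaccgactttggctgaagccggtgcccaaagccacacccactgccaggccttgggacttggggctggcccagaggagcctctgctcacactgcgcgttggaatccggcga
Slc25a13, chr6:6217174-6217423, minus strand: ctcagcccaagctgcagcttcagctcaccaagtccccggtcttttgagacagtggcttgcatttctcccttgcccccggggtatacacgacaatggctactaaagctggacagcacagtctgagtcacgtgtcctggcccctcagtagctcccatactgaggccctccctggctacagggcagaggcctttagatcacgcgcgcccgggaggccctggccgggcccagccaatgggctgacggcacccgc
The first capitals in Slc25a3 match the NRF1 motif (GCGC, any base, then TGCGC), and the other capitals in Slc25a3 and those in Slc25a20 match the GABP motif CCGGAAG. NRF1 and GABP are transcription factors known for driving nuclear genes of mitochondria. Windows of 300 bases around the start were found for 36 of 47 members and searched on both strands, counting a gene once if any of its windows matched. The GABP motif was in 7 of 36 members (19.4%) and in 9.93% of 27025 genes with a window. The 7 were Slc25a3, Slc25a4, Slc25a20, Slc25a17, Slc25a25, Slc25a38 and Slc25a54. Of these, Slc25a3, Slc25a4 and Slc25a20 fell after ligation, Slc25a17, Slc25a25 and Slc25a38 were not called and Slc25a54 was not tested. In that comparison 12 of 39 tested members and 18.0% of all genes fell. The NRF1 motif was in 2 members (5.56%), Slc25a3 and Slc25a31, against 5.19% of genes. The motif TNAAGGTCA of estrogen-related receptors was in 0 of 36 members and 1.43% of genes. TCACNCCAC, bound by SREBP, was in Slc25a18, and the cyclic AMP response element TGACGTCA was in Slc25a25 and Slc25a36, against 1.44% and 2.03% of genes. The windows of Slc25a12 and Slc25a13 held none of the 5 motifs. A match describes letters in a window and is not evidence of binding.

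Levels between members were compared per kilobase of exon, with the exons of all annotated transcripts of a gene merged. Merged exons span 2353 bases for Slc25a4 and 5550 bases for Slc25a3, whose mean levels in sham were 6903 and 1794 CPM. Which transcripts were expressed was not tested, so the gaps between members depend on this length. Slc25a5 shares 49.4% of its 31-base stretches with other genes, so its rank is uncertain. In sham hearts Slc25a4, the ADP/ATP carrier of heart and muscle, stood first with 2934 ± 69.9 CPM per kilobase (SD, n = 3), followed by the phosphate carrier Slc25a3 with 323 ± 11.3, the ubiquitous ADP/ATP carrier Slc25a5 with 256 ± 2.60 and the oxoglutarate carrier Slc25a11 with 214 ± 7.03 CPM per kilobase. The next were Slc25a39, a glutathione carrier, with 51.8 ± 2.50, Slc25a34, whose substrate is not assigned here, with 42.3 ± 1.82, and Slc25a20 with 29.1 ± 1.12 CPM per kilobase. The ranges of neighbours did not overlap down to Slc25a12, the ninth, at 24.1 ± 0.488 CPM per kilobase. Below it Slc25a51, an NAD carrier, and Slc25a46, an outer membrane protein, overlapped at 12.6 to 14.1 and 12.1 to 13.1 CPM per kilobase. Slc25a4 alone made up 71.8% to 72.7% of the family's summed level per kilobase in sham libraries, 62.4% to 63.7% after ligation and 62.6% to 64.1% with cells.

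Members that did not pass the filter were Slc25a2, Slc25a18, Slc25a21, Slc25a31, Slc25a41, Slc25a43, Slc25a48 and Slc25a54. Slc25a41 and Slc25a54 had 0 counts in all 9 libraries. The other 6 stayed at or below 2.08 CPM in every library, the highest value being that of Slc25a43 in cell library 2. Slc25a31, the ADP/ATP carrier of male germ cells, was at most 1.15 CPM.

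**Figure D1:**
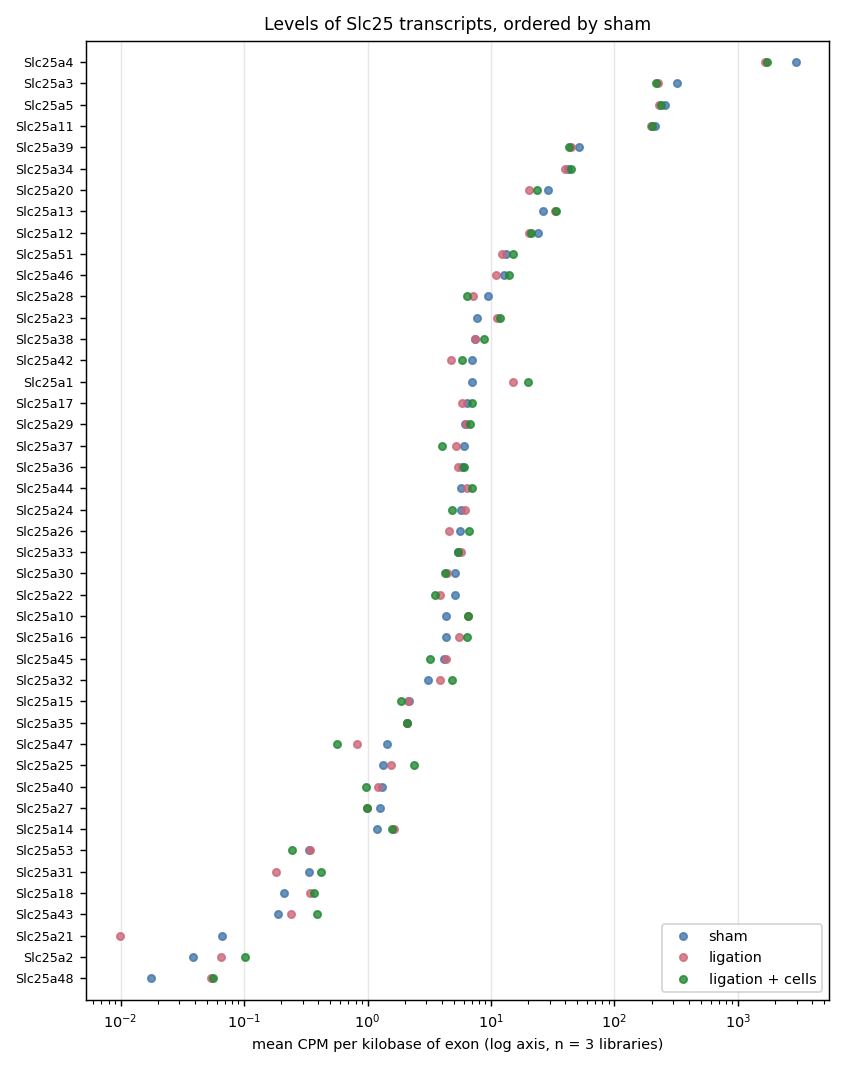
Mean level of Slc25 members in CPM per kilobase of exon (log axis, n = 3 libraries per group), ordered by sham, with 1 point per group; Slc25a41 and Slc25a54 had 0 counts and are left out, as are 1 member not reported here and the cell group's point for Slc25a21 at 0. Slc25a4 lies far to the right of all others and is lower in both ligated groups, while Slc25a1 lies to the right of its sham point in both.

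After ligation 18 of the 39 tested members differed from sham by edgeR's quasi-likelihood test at an adjusted p under 0.05, which is 46.2% against 38.2% of all genes tested. Of these, 12 fell (30.8%, against 18.0% of all genes) and 6 rose (15.4%, against 20.1%). The median log2 fold change of the members was -0.11, against 0.0080 over all genes tested, and 25 of 39 were below 0. CPM ranges of the groups were apart for 22 members (56.4%), against 47.6% of all genes. The number that fell depends on the scaling: with library totals alone, which moves the median of all genes from 0.0080 to 0.20, 4 members fell, namely Slc25a3, Slc25a4, Slc25a20 and Slc25a42, and the members' median was 0.08. Of all genes called, 52.7% were higher with TMM scaling and 78.7% with library totals alone. Summing libraries with a shared header stem gave 11 that fell and 5 that rose.

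In summed level the family went from 10740 to 11190 CPM in sham to 6978 to 7455 CPM after ligation and 7278 to 7687 CPM with cells. The ligated ranges lie below every sham library and overlap each other. Nearly all of that difference was in the carriers of ATP export and phosphate import, which summed to 9119 ± 227 CPM in sham (SD, n = 3), 5516 ± 220 CPM after ligation and 5614 ± 217 CPM with cells.

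The carriers that serve ATP synthase were lower after ligation. Slc25a4 (chromosome 8, 46206797 to 46211284 on GRCm38, minus strand) was at 7053, 6727 and 6930 CPM in sham, 4055, 3897 and 3702 CPM after ligation and 3925, 4244 and 3896 CPM with cells. Every sham library lies above every ligated library, and the ligated groups overlap. The level after ligation was 0.563 times that of sham (log2 fold change -0.83, SE 0.0368, edgeR adjusted p 3.44e-13). Slc25a3 (chromosome 10, 91116574 to 91124059, minus strand) stood at 1864, 1744 and 1774 CPM in sham, 1291, 1246 and 1226 CPM after ligation and 1209, 1205 and 1183 CPM with cells. It fell to 0.699 times the sham level (log2 fold change -0.52, SE 0.0370, edgeR adjusted p 6.00e-10), and its values with cells lie just below those of ligation alone. The ubiquitous paralog Slc25a5 was at 425, 417 and 419 CPM in sham, 382, 385 and 361 CPM after ligation and 387, 413 and 378 CPM with cells. It fell by 0.16 on the log2 scale (SE 0.0471, edgeR adjusted p 0.00966). With library totals alone the difference was 0.03 (edgeR adjusted p 0.683). Slc25a5 shares 49.4% of its 31-base stretches with 13 other genes, so its counts are uncertain to that extent.

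The list for ATP synthase, the partner of these carriers, holds the inhibitor Atpif1 (-0.58 after ligation) beside the subunits. All 16 genes tested on it fell after ligation, where 18.0% of all genes fell and 20.1% rose. Their log2 fold changes ran from -1.04 to -0.24, with a median of -0.64. The same shares apply to the marker counts after ligation that follow. The cardiomyocyte markers moved in part with them: 7 of 10 fell and 2 rose, with a median of -0.36 and a range from -0.95 to 0.36. Marker lists of other cells moved as well: 6 of 8 fibroblast markers rose and 1 fell, 8 of 10 macrophage and monocyte markers rose and 1 fell, and 7 of 8 endothelial markers fell and 1 rose. Their summed levels in sham, ligation and cells were 2300 to 2355, 4280 to 4376 and 3993 to 4100.0 CPM for fibroblasts, 679 to 727, 1221 to 1252 and 505 to 517 CPM for macrophages, and 2223 to 2351, 1543 to 1653 and 1642 to 1690 CPM for endothelium, and no marker of these lists was at 0 in every library. In tissue RNA, fewer cells of a type and less RNA per cell cannot be told apart, and the part of cell composition in the results on carriers was not tested.

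**Figure D2:**
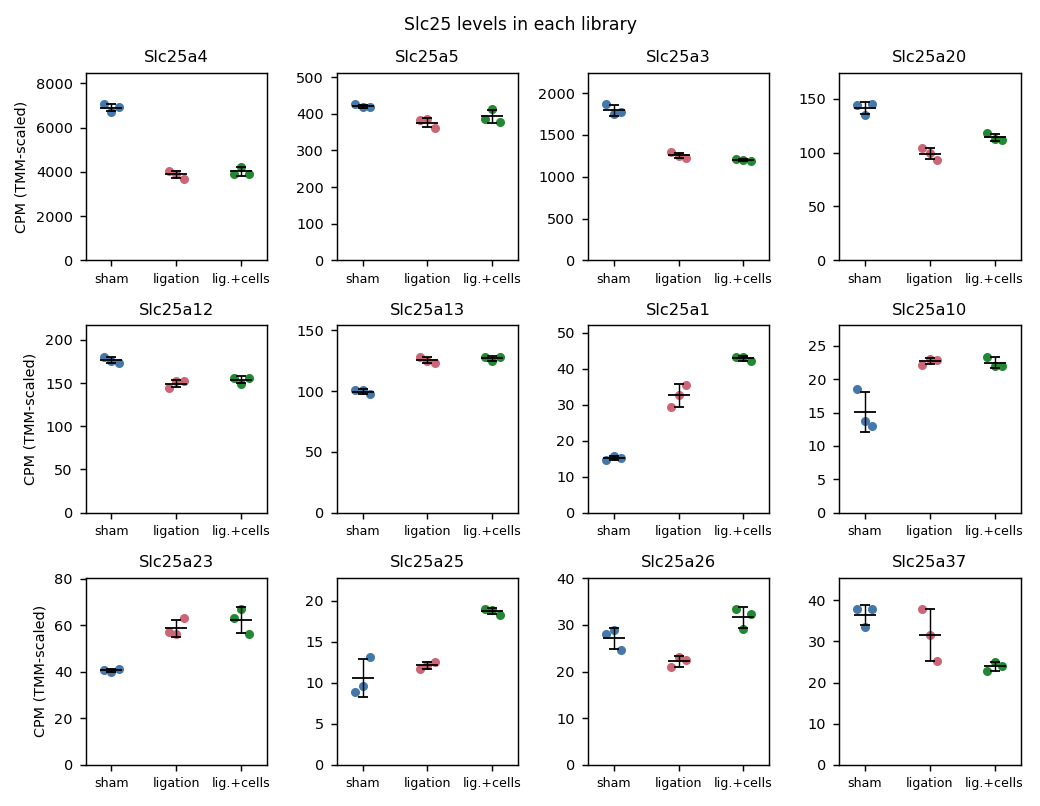
Level of 12 members in each library in CPM scaled with TMM factors (points, axes from 0), with the mean and SD of 3 libraries per group in black. Slc25a4, Slc25a3, Slc25a20 and Slc25a12 are highest in sham, Slc25a13, Slc25a1, Slc25a10 and Slc25a23 are lowest in sham, and Slc25a25 stands out with cells.

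Slc25a20, which exchanges acylcarnitine for carnitine and so admits fatty acids to oxidation (chromosome 9, 108662088 to 108684641, plus strand), was at 144, 135 and 145 CPM in sham, 104, 99.5 and 93.4 CPM after ligation and 118, 113 and 111 CPM with cells. The 3 groups do not overlap, with ligation lowest and cells between. Slc25a20 fell after ligation to 0.699 times the sham level (log2 fold change -0.52, SE 0.0610, edgeR adjusted p 8.78e-07). With cells it rose by 0.21 over ligation (SE 0.0611, edgeR adjusted p 0.0332) and remained below sham by 0.31 (SE 0.0600, edgeR adjusted p 0.000327). The rise with cells did not pass in 7 of 19 other settings, including fits without ligation library 2 or 3 or without any of the 3 cell libraries (log2 fold changes 0.17 to 0.23, edgeR adjusted p 0.0594 to 0.168) and the fit with header pairs summed. Among its 6 partners in the carnitine shuttle, 4 fell after ligation, where 18.0% of all genes fell. Of these, Cpt2, the inner carnitine palmitoyltransferase, fell by 0.72 (edgeR adjusted p 7.98e-09). With cells against ligation 1 of 6 rose, Acsl1, which makes long-chain acyl-CoA (0.32, edgeR adjusted p 5.76e-05), where 4.19% of all genes rose.

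The calcium-dependent ATP-Mg/phosphate carriers adjust the matrix pool of adenine nucleotides. Slc25a23 was at 40.8, 40.0 and 41.3 CPM in sham, 57.1, 56.3 and 63.0 CPM after ligation and 63.3, 67.1 and 56.2 CPM with cells. Its sham values lie below all others, and it rose after ligation to 1.45 times sham (log2 fold change 0.54, SE 0.0816, edgeR adjusted p 2.34e-05) and stayed above sham with cells (0.61, SE 0.0804, edgeR adjusted p 3.44e-06). Slc25a24 was at 17.8, 20.3 and 20.5 CPM in sham, 20.7, 21.7 and 21.1 CPM after ligation and 16.0, 16.5 and 17.1 CPM with cells. It did not pass in any comparison, the closest being cells against ligation, where it was lower in every library (log2 fold change -0.36, SE 0.113, edgeR adjusted p 0.0508). That difference passed with limma-voom and with library totals alone, and with library totals alone Slc25a24 also passed as higher after ligation (0.31, edgeR adjusted p 0.0344). Slc25a25 was at 8.90, 9.55 and 13.2 CPM in sham, 11.7, 12.2 and 12.5 CPM after ligation and 19.0, 18.9 and 18.3 CPM with cells. Sham and ligation overlap, and every cell library lies above both. Slc25a25 rose with cells to 1.54 times the level of ligation alone (log2 fold change 0.62, SE 0.142, edgeR adjusted p 0.00646) and to 1.77 times sham (0.82, SE 0.147, edgeR adjusted p 0.000137). Another carrier with this substrate, Slc25a41, had no counts.

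Among carriers of di- and tricarboxylates, 2 of 3 tested rose after ligation, where 20.1% of all genes rose. The other, Slc25a11, passed as lower in 5 of 19 other settings, among them DESeq2 and limma-voom. Slc25a1, which exports citrate for fatty acid and sterol synthesis (chromosome 16, 17925223 to 17928219, minus strand), was at 14.6, 15.8 and 15.2 CPM in sham, 29.4, 32.9 and 35.6 CPM after ligation and 43.3, 43.4 and 42.2 CPM with cells. The 3 groups are apart and ascend from sham to ligation to cells. This was the largest rise of a tested member after ligation, 2.16 times sham (log2 fold change 1.11, SE 0.103, edgeR adjusted p 3.00e-08). With cells it rose further, 1.31 times ligation (log2 fold change 0.38, SE 0.0879, edgeR adjusted p 0.00630). Slc25a10, the dicarboxylate carrier, was at 18.5, 13.7 and 13.0 CPM in sham, 22.2, 23.0 and 22.9 CPM after ligation and 23.4, 21.9 and 22.0 CPM with cells. Sham library 1 lies between the other sham libraries and the ligated ones. Slc25a10 rose to 1.51 times sham (log2 fold change 0.60, SE 0.131, edgeR adjusted p 0.00102) and differed little between ligated groups (-0.02, SE 0.121, edgeR adjusted p 0.954). Slc25a11, which exchanges oxoglutarate for malate, was at 447, 470.2 and 442 CPM in sham, 419, 432 and 409 CPM after ligation and 429, 428 and 423 CPM with cells. Its ligation values lie below sham by a small amount (log2 fold change -0.11, SE 0.0442, edgeR adjusted p 0.0556).

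Most adipocyte markers rose after ligation, as Slc25a1 and Slc25a10 did and as most tested fibroblast, macrophage and erythroid markers did. Of the 6 markers, Adipoq, Plin1, Cidec, Lep and Retn rose after ligation and Cidea fell. Their summed level was 43.2 to 48.1 CPM in sham, 93.04 to 105.5 CPM after ligation and 92.2 to 102.3 CPM with cells, and none was at 0 in every library. With cells against ligation their log2 fold changes ran from -0.28 to 0.51 (edgeR adjusted p 0.164 or more), and the part of adipose tissue in these 2 carriers was not tested.

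Of the 7 tested amino acid carriers, 2 fell and 1 rose after ligation, where 18.0% of all genes fell and 20.1% rose. Counts this small are near those shares. Slc25a12, the aspartate/glutamate carrier of muscle and brain, was at 181, 176 and 174 CPM in sham, 144, 152 and 152 CPM after ligation and 156, 149 and 156 CPM with cells. It fell after ligation (log2 fold change -0.24, SE 0.0534, edgeR adjusted p 0.00121), though with library totals alone the difference was -0.05 (edgeR adjusted p 0.476). Its paralog Slc25a13, called citrin, was at 101, 100.5 and 97.5 CPM in sham, 128, 125 and 123 CPM after ligation and 128, 125 and 128 CPM with cells. All 3 sham libraries lie below the 6 ligated ones, and Slc25a13 rose by 0.33 after ligation (SE 0.0561, edgeR adjusted p 7.74e-05). Among the enzymes that work with these carriers in the malate-aspartate shuttle, Got1, Got2, Mdh1 and Mdh2 all fell, with a median of -0.35. Slc25a22, a glutamate carrier, was at 30.6, 32.3 and 28.6 CPM in sham, 24.9, 23.9 and 20.5 CPM after ligation and 20.7, 20.2 and 22.8 CPM with cells. It fell by 0.41 (SE 0.108, edgeR adjusted p 0.00452) and lay at -0.52 with cells against sham (SE 0.107, edgeR adjusted p 0.000542). With library totals alone the difference after ligation was -0.22 and did not pass (edgeR adjusted p 0.0968). Slc25a44, which carries branched-chain amino acids, passed in cells against sham (0.30, edgeR adjusted p 0.0406), a call that 11 of 19 other settings did not give. These included fits without any sham library, without ligation library 3 and without cell library 1 or 3 (log2 fold changes 0.24 to 0.32, edgeR adjusted p 0.0553 to 0.145). With header pairs summed Slc25a44 was at 0.29 (edgeR adjusted p 0.0639), and with library totals alone it passed as higher after ligation too (0.37, edgeR adjusted p 0.0137). The ornithine, basic amino acid and glycine carriers Slc25a15, Slc25a29 and Slc25a38 did not pass in any comparison.

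The mitoferrins Slc25a28 and Slc25a37 import iron for heme and iron-sulfur clusters. Slc25a28 was at 39.7, 35.6 and 31.9 CPM in sham, 28.8, 26.2 and 25.8 CPM after ligation and 23.0, 23.7 and 24.9 CPM with cells. It fell after ligation (log2 fold change -0.41, SE 0.101, edgeR adjusted p 0.00251) and was lower with cells than in sham (-0.58, SE 0.101, edgeR adjusted p 9.90e-05). With library totals alone the difference after ligation was -0.23 and did not pass (edgeR adjusted p 0.0729). Slc25a37, the mitoferrin of red cell precursors, was at 37.9, 33.6 and 37.9 CPM in sham, 37.9, 31.5 and 25.2 CPM after ligation and 22.8, 25.1 and 23.9 CPM with cells. Ligation libraries spread widely, and all 3 cell libraries lie below them. Against sham it fell with cells to 0.657 times (log2 fold change -0.61, SE 0.119, edgeR adjusted p 0.000349). Against ligation the difference was -0.37 (SE 0.121, edgeR adjusted p 0.0570), which passed in 4 of 19 other settings. Those were library totals alone, no filter, the fit without ligation library 3 and the fit with header pairs summed. Fits that each left out 1 library gave log2 fold changes of -0.52 to -0.24 in cells against ligation. Without ligation library 1, which has the highest value, Slc25a37 also passed as lower in ligation than in sham (-0.37, edgeR adjusted p 0.0176). The 7 erythroid markers summed to 872 to 919 CPM in sham, 1499 to 1599 CPM after ligation and 663 to 681 CPM with cells. With cells against ligation 5 of 6 tested erythroid markers and 9 of 10 macrophage and monocyte markers fell, where 5.69% of all genes fell. The part of these cells in the values of Slc25a37 was not tested.

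Carriers of cofactors and nucleotides were the most numerous, with 11 members, all tested. After ligation 4 fell and 2 rose, where 18.0% of all genes fell and 20.1% rose, so the number that rose is near the share over all genes. Of the 11, 3 rose with cells over ligation, where 4.19% of all genes rose. Slc25a42, which exchanges coenzyme A for adenine nucleotides, was at 42.0, 44.3 and 40.6 CPM in sham, 28.6, 28.5 and 28.9 CPM after ligation and 32.6, 36.3 and 35.0 CPM with cells. It fell after ligation to 0.677 times sham (log2 fold change -0.56, SE 0.0851, edgeR adjusted p 2.16e-05), with groups apart. Its rise with cells over ligation was at the threshold (log2 fold change 0.27, SE 0.0855, edgeR adjusted p 0.0464). That call was not given by 15 of 19 other settings, among them every fit without 1 library except that without cell library 1 (log2 fold changes 0.24 to 0.28, edgeR adjusted p 0.0516 to 0.157), DESeq2, limma-voom and the summed header pairs. Slc25a16, also a coenzyme A carrier, was at 24.6, 16.6 and 21.1 CPM in sham, 26.2, 25.8 and 28.0 CPM after ligation and 30.1, 31.9 and 29.7 CPM with cells. It rose after ligation by 0.37 (SE 0.121, edgeR adjusted p 0.0210), except without sham library 2 or ligation library 3 (0.23 and 0.31, edgeR adjusted p 0.105 to 0.148). With cells it stood at 1.48 times sham (0.56, SE 0.118, edgeR adjusted p 0.000675).

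Slc25a26, which brings S-adenosylmethionine into mitochondria, was at 28.1, 28.8 and 24.6 CPM in sham, 20.9, 23.1 and 22.5 CPM after ligation and 33.5, 29.1 and 32.3 CPM with cells. Cell libraries all lie above the ligation libraries. Slc25a26 rose with cells to 1.42 times ligation (log2 fold change 0.50, SE 0.102, edgeR adjusted p 0.00220), a call that all 19 other settings gave. Its fall after ligation (-0.29, edgeR adjusted p 0.0382) was not called in 11 of 19 other settings, including fits without sham library 1 or 2 or any ligation library (-0.31 to -0.24, edgeR adjusted p 0.0581 to 0.137) and the summed header pairs. Slc25a32, the folate and FAD carrier, was at 18.7, 18.0 and 19.2 CPM in sham, 21.5, 25.2 and 23.8 CPM after ligation and 29.5, 29.8 and 28.2 CPM with cells. Its CPM ranges were apart in the 3 groups, lowest in sham, though cells against ligation did not pass (0.31, edgeR adjusted p 0.0580). The rise after ligation (0.34, SE 0.108, edgeR adjusted p 0.0158) did not pass without sham library 2 or ligation library 2 or 3 (0.29 to 0.32, edgeR adjusted p 0.0534 to 0.0740), with DESeq2 or with header pairs summed. Against sham the cell group was at 1.57 times (0.65, SE 0.104, edgeR adjusted p 3.97e-05). Slc25a39, a glutathione carrier, was at 148, 146 and 135 CPM in sham, 123, 124 and 121 CPM after ligation and 115, 119 and 121 CPM with cells. It fell after ligation by 0.22 (SE 0.0577, edgeR adjusted p 0.00496) and lay at -0.27 with cells against sham. With library totals alone these were -0.03 and -0.11 and did not pass. Its paralog Slc25a40 did not pass in any comparison.

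Slc25a51, which carries NAD into the matrix, was at 77.4, 69.4 and 70.8 CPM in sham, 70.1, 66.8 and 66.6 CPM after ligation and 78.9, 86.3 and 84.1 CPM with cells. It rose with cells over ligation (log2 fold change 0.29, SE 0.0665, edgeR adjusted p 0.00571), and against sham by 0.20 (edgeR adjusted p 0.0222). The latter did not pass with DESeq2 or without sham library 2 or 3 or cell library 2 or 3 (0.16 to 0.19, edgeR adjusted p 0.0686 to 0.0911). Slc25a46, an outer membrane member linked to mitochondrial shape, was at 70.8, 65.6 and 71.1 CPM in sham, 60.5, 62.5 and 57.1 CPM after ligation and 75.2, 77.4 and 73.9 CPM with cells. Ligation is lowest and cells highest. It rose with cells over ligation (log2 fold change 0.33, SE 0.0661, edgeR adjusted p 0.00198), while its fall after ligation (-0.21, edgeR adjusted p 0.0204) was lost without sham library 1 or 3 or ligation library 3 (-0.19 to -0.18, edgeR adjusted p 0.0696 to 0.0730), with no filter, with DESeq2 and with library totals alone. The pyrimidine nucleotide carriers did not pass in any comparison, though with library totals alone Slc25a36 was higher with cells than in sham (0.22, edgeR adjusted p 0.0189). Slc25a33 was at 10.9, 10.9 and 8.89 CPM in sham, 13.2, 9.55 and 9.38 CPM after ligation and 10.9, 11.2 and 8.36 CPM with cells. Slc25a36 was at 50.9, 56.0 and 59.2 CPM in sham, 54.8, 52.1 and 48.0 CPM after ligation and 59.3, 57.7 and 57.0 CPM with cells. Of the exons of Slc25a33, 14.9% overlap a gene on the other strand, and whether counting used strand is not stated.

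The remaining tested members were Slc25a14, Slc25a27 and Slc25a30, which belong to the uncoupling-type branch, Slc25a17 of peroxisomes, and Slc25a34, Slc25a35, Slc25a45, Slc25a47 and Slc25a53, to which no substrate is assigned here. Of these, Slc25a47 passed, in cells against sham (-1.32, SE 0.348, edgeR adjusted p 0.00443), from 4.28 ± 1.61 CPM (SD, n = 3) to 1.70 ± 0.520 CPM. Without sham library 2, which holds its highest value, the difference was -0.98 (edgeR adjusted p 0.0557). Without sham library 3 it also passed as lower after ligation (-0.98, edgeR adjusted p 0.0389).

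**Figure D3:**
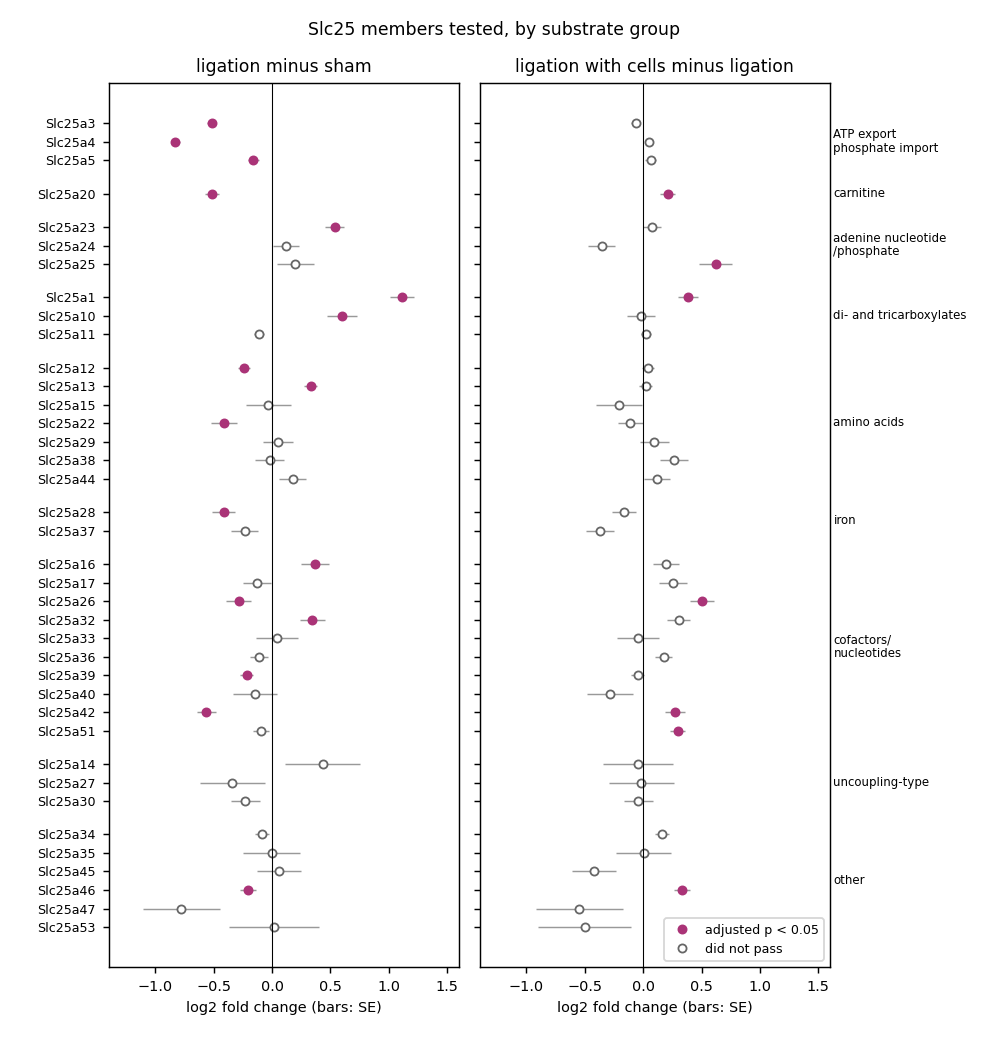
Log2 fold changes with SE (bars) from the edgeR fit for 38 of the 39 tested members (1 is not reported here), grouped by substrate, for ligation minus sham (left) and ligation with cells minus ligation (right); filled points passed an adjusted p under 0.05. Points spread to both sides on the left, from -0.83 for Slc25a4 to 1.11 for Slc25a1, and the 7 filled points on the right all lie above 0.

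With cells against ligation 7 of 39 members passed (17.9%, against 9.87% of all genes), and all 7 were higher with cells, where 4.19% of all genes were higher and 5.69% lower. They were Slc25a1, Slc25a20, Slc25a25, Slc25a26, Slc25a42, Slc25a46 and Slc25a51. By edgeR 0 members were lower; at an unadjusted p under 0.05 there were 3 lower and 13 higher, DESeq2 gave 0 lower and limma-voom gave 1. With library totals alone 5 were higher and 2 lower (Slc25a24 at -0.39 and Slc25a37 at -0.40), and the share of higher genes among all calls went from 42.4% to 32.0%. All but Slc25a20 and Slc25a42 passed in each of the 19 other settings. The members' median was 0.04, against 0.00195 over all genes, and 19 members (48.7%) had CPM ranges apart, against 27.2% of all genes. Slc25a4, Slc25a3 and Slc25a5 did not pass, with log2 differences of 0.05, -0.07 and 0.06 and SEs of 0.0365, 0.0370 and 0.0470 (edgeR adjusted p 0.314 to 0.472). Fits that each left out 1 library gave 0.00927 to 0.0797 for Slc25a4 and 0.0255 to 0.0878 for Slc25a5.

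Against sham the cell group differed in 19 of 39 members (48.7%, against 40.9% of all genes), with 9 higher and 10 lower, where 21.0% and 20.0% of all genes were higher and lower. With library totals alone 14 were higher and 7 lower, and the share of higher genes among all calls went from 51.2% to 73.1%. The members' median was -0.09, against -0.01 over all genes, and turned to 0.07 with library totals alone. CPM ranges were apart for 27 members (69.2%, against 49.8%). Side by side, 11 members passed in both comparisons against sham and not between the ligated groups, among them Slc25a4 (-0.83 after ligation and -0.78 with cells), Slc25a3 (-0.52 and -0.58), Slc25a13 (0.33 and 0.35), Slc25a10 (0.60 and 0.58) and Slc25a23 (0.54 and 0.61). Both comparisons use the same sham libraries. Slc25a20, Slc25a26, Slc25a42 and Slc25a46 passed in ligation against sham and, with the opposite sign, in cells against ligation, comparisons that share the ligation libraries. Of these 4, Slc25a26 and Slc25a46 did not differ from sham with cells past the threshold (edgeR adjusted p 0.0866 and 0.132). That depends on the scaling: with library totals alone both were higher than sham with cells (0.38 and 0.28, edgeR adjusted p 0.00465 and 0.00121), and Slc25a42 no longer passed as lower (-0.13, edgeR adjusted p 0.223).

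Ratios of paralogs with the same substrate do not depend on library scaling. The count ratio of Slc25a4 to Slc25a5 was 16.6, 16.1 and 16.5 in sham, 10.6, 10.1 and 10.3 after ligation, and 10.1, 10.3 and 10.3 with cells. On the log2 scale it differed by -0.67 between ligation and sham, with group SDs of 0.0337 and 0.0219. Slc25a5 shares 49.4% of its 31-base stretches with other genes and Slc25a4 shares 0%, so the size of this ratio is uncertain. The ratio of Slc25a12 to Slc25a13 was 1.80, 1.75 and 1.78 in sham, 1.13, 1.22 and 1.23 after ligation, and 1.22, 1.19 and 1.21 with cells, a log2 difference of -0.57 between ligation and sham. In both pairs the muscle-type paralog lost ground to the other after ligation, and cell libraries lie near the ligation libraries. Slc25a23 to Slc25a24 went from 2.28, 1.97 and 2.01 in sham to 2.75, 2.59 and 2.98 after ligation and 3.93, 4.05 and 3.27 with cells, with all 3 groups apart (log2 differences 0.41 and 0.43). For these pairs the exact two-sided permutation p was 0.1 wherever groups were apart, the smallest that 3 against 3 libraries allow, and 0.214 after Benjamini-Hochberg adjustment over 15 tests, so this permutation test cannot pass 0.05. Slc25a28 to Slc25a37 and Slc25a33 to Slc25a36 overlapped between all groups, with exact permutation p from 0.2 to 1.

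**Figure D4:**
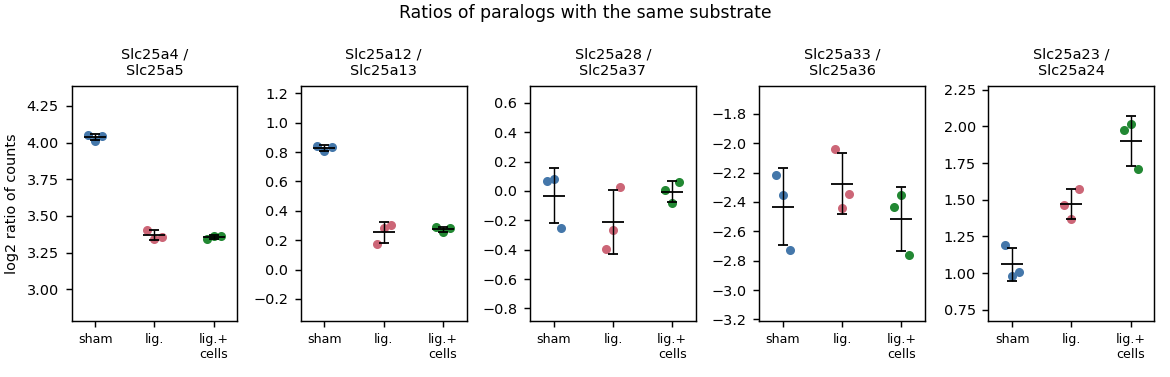
Log2 ratio of counts for 5 pairs of carriers with the same substrate in each library (points), with mean and SD of 3 libraries per group; each panel spans the same width. Sham stands above both ligated groups for Slc25a4/Slc25a5 and Slc25a12/Slc25a13, and the groups ascend for Slc25a23/Slc25a24.

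Relatives of the family under other symbols and its import machinery were counted from lists. Of 4 tested relatives 2 rose and 2 fell after ligation, where 20.1% of all genes rose and 18.0% fell. Mtch1 and Mtch2, outer membrane relatives, were at 0.15 and -0.19 (edgeR adjusted p 0.0402 and 0.0167). Ucp3, the uncoupling protein of muscle, fell after ligation from 10.6 to 3.65 CPM (-1.52, edgeR adjusted p 5.38e-06) and rose with cells to 7.27 CPM (0.98, edgeR adjusted p 0.00389). Ucp2, which macrophages express strongly, rose after ligation from 88.2 to 123.5 CPM (0.48, edgeR adjusted p 1.35e-06) and fell with cells to 69.4 CPM (-0.83, edgeR adjusted p 4.29e-09), beside the macrophage sums given above, whose part was not tested. Ucp1 had at most 1 count in a library. Of the 10 genes for the TIM22 route that inserts carriers into the inner membrane, 6 fell and 1 rose after ligation, where 18.0% of all genes fell and 20.1% rose, with a median of -0.33. With cells against ligation 1 of the 10 rose, Tomm70a, the outer membrane receptor for carriers (0.22, edgeR adjusted p 0.0288), where 4.19% of all genes rose.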

How the data were processed

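The authors' deposited files hold raw, unscaled read counts for Ensembl genes in a file for each library. The build is mm10, per the submitters' processing notes. Libraries were made from TRIzol-extracted total RNA with a NEBNext Ultra kit, per the labels' protocols. Aligner, counter and strand setting are not given in the sources used here. Closing lines of each file carry names used by htseq-count, and reads they list as outside genes (4.14% to 4.91%) or ambiguous (8.09% to 8.72%) stayed out of all totals.

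Symbols for 53274 of 53465 gene IDs, exon lengths, coordinates and shared 31-base stretches came from GENCODE M21 (GRCm38). Genes were kept with filterByExpr, scaled with TMM factors and fitted in 1 model with a mean per group (edgeR 4.0.16, glmQLFit and glmQLFTest, R 4.3.3). Adjusted p-values are Benjamini-Hochberg values over all 13825 genes, called under 0.05. Tests are two-sided, and an SE is the fold change divided by the root of the F statistic. Paralog ratios used 0.5 added counts and exact permutation tests. Values in each library are given for members with an adjusted p under 0.05, an absolute log2 fold change of at least 0.5 and a mean of at least 5 CPM in any comparison, for the 5 highest in sham, for 5 paralog pairs and for Slc25a4, Slc25a20 and Slc25a3; Slc25a46 and Slc25a51 were added after their values were seen, as were the relatives and partners named singly. Members, lists and tests were chosen with earlier results of these data known. Alternatives used DESeq2 1.42.0, limma-voom 3.58.1, other scalings and filters, a replicate block, and fits without each library; summing header pairs was chosen after seeing the data. The values of 1 member are not reported here, though it stays in the counts and sums. The pipeline was tested on simulated data. The floor of 3 counts covers counting error only. Figures used matplotlib 3.10.9.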

Additional observations from a re-analysis of the deposited data

How the results depend on the processing

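Across 19 other settings, 8 of the 17 calls after ligation of members reported here, 5 of the 7 calls of cells against ligation and 13 of the 19 calls of cells against sham were given in every one. Library totals alone moved most: members lower after ligation became 4 in place of 12, members lower in cells against ligation 2 in place of 0, and members higher in cells against sham 14 in place of 9. The medians became 0.0780, 0.00997 and 0.0712 in place of -0.11, 0.04 and -0.09. With that scaling the sign turned after ligation for Slc25a5 (0.0253), Slc25a11 (0.0774), Slc25a36 (0.0780) and Slc25a51 (0.0909), in cells against ligation for Slc25a11 (-0.00621) and Slc25a13 (-0.00844), and in cells against sham for Slc25a5 (0.0598), Slc25a11 (0.0712) and Slc25a33 (0.157). None of these 9 passed 0.05 there. Slc25a33 in cells against sham, at -0.000807 with all libraries, was also 0.00767 with no filter, 0.000945 in the fit of only 2 groups and 0.00189 with header pairs summed. In cells against ligation 1 member was lower with no filter, with limma-voom and with header pairs summed.

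Fits that each left out 1 library gave 0 to 1 members lower in cells against ligation (1 without ligation library 3), and medians of 0.0331 to 0.0654 in cells against ligation and -0.104 to -0.0621 in cells against sham. They ranged for Slc25a33 from -0.106 to 0.115 after ligation, -0.132 to 0.103 in cells against ligation and -0.0944 to 0.121 in cells against sham. Paralog log2 ratios ranged in cells against ligation from -0.0262 to 0.00638 for Slc25a4/Slc25a5 and -0.0180 to 0.0460 for Slc25a12/Slc25a13, and in cells against sham from -0.0786 to 0.0871 for Slc25a28/Slc25a37 and -0.228 to 0.0404 for Slc25a33/Slc25a36. The cause of these changes was not tested.

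A replicate block, fitted on the numbers in the titles, gave 6 members that were higher and 11 lower after ligation, 6 and 0 in cells against ligation, and 8 and 10 in cells against sham. Libraries sharing a number had deviations from their group means that correlated at 0.144, 0.0774 and -0.122 (ligation with sham) across genes, which are not independent replicates, so the numbers were not taken to pair libraries.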

Other observations

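Other routes across the mitochondrial membranes were counted from a list of 13 genes, all tested. After ligation 6 fell and 1 rose, where 18.0% of all genes fell and 20.1% rose. Mpc2, a subunit of the mitochondrial pyruvate carrier, fell by 0.47 (edgeR adjusted p 1.53e-07), and the outer membrane pores Vdac2 and Vdac3 fell by 0.38 and 0.35 (edgeR adjusted p 4.39e-07 and 1.93e-05). Vdac1 did not pass (-0.08, edgeR adjusted p 0.179). Micu2, which gates the calcium uniporter, rose by 0.50 after ligation (edgeR adjusted p 7.04e-06) and stood 0.62 above sham with cells (edgeR adjusted p 3.27e-07), while the pore subunit Mcu did not pass in any comparison. With cells against ligation the 13 had edgeR adjusted p of 0.142 or more. These genes were named after their values were seen.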
